A study of Mus musculus with 4 samples.

Results

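Neutrophil-rich spots were the spots of the popliteal lymph node (PLN) sections in which the RNAs of 6 neutrophil genes made up the largest share of the captured RNA. A spot is a barcoded disc of the Visium array, which captures the RNA of the tissue above it and can hold several cells, and each captured molecule is counted once by its unique molecular identifier (UMI). The score of a spot was the summed UMIs of S100a8, S100a9, Retnlg, Camp, Ngp and Ltf divided by all its UMIs. Among the spots with at least 1000 UMIs, the top 10% of each capture area were taken, provided that they held at least 2 UMIs of the 6 genes. This gave 193 neutrophil-rich spots of 2057 spots with at least 1000 UMIs and of 6119 spots under tissue, with 27 on the capture area of WT, 49 on that of Early, 57 on the first Advanced area (Advanced 1) and 60 on the second (Advanced 2). On the Early area, 11 of the 60 top spots were dropped because they held fewer than 2 UMIs of the 6 genes. The other 1864 spots with at least 1000 UMIs served for comparison.

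The study followed the PLNs, which drain the ankle, through the course of arthritis in TNF-Tg mice, which carry a TNF transgene. The WT area held 10 PLNs of 5 wild-type mice of 5.5 months. The Early area held 6 PLNs of 3 TNF-Tg mice of the same age with early arthritis. Each of the 2 Advanced areas held 6 PLNs of 3 TNF-Tg mice of 8.5 to 9 months with advanced arthritis. All mice were male and of the C57BL/6 strain, the hindpaws had received Evan's blue dye to find the nodes, and each area carried a single 10 µm frozen section permeabilized for 12 minutes. WT and Early thus had 1 area each, several mice lay on every area, the Advanced mice were also older than the others, and age and stage cannot be told apart. Spots were not counted as replicates, and UMIs were summed per area.

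Neutrophils are short-lived white cells that leave the bone marrow with their granules already filled and enter tissues from the blood. S100a8 and S100a9 encode the 2 chains of calprotectin, an abundant protein of their cytosol. Camp (cathelicidin), Ngp and Ltf (lactoferrin) encode proteins of the secondary granules, which are made while the cell matures in the marrow, and Retnlg encodes a resistin-like protein of neutrophils. In a lymph node, neutrophils are found mainly in the sinuses and the medulla, where lymph flows past macrophages.

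The areas held between 1808678 and 5180493 UMIs, and between 89.9% and 96.5% of these lay in the spots with at least 1000 UMIs. Those spots lay along the tissue margins and in patches within the sections. When each was thinned to 1000 UMIs, 33.0% had a UMI of the 6 genes on WT, 14.98% on Early, 50.3% on Advanced 1 and 25.3% on Advanced 2, and without thinning the shares were 65.6%, 52.1%, 77.2% and 54.1%. Between 8.57% and 11.4% of the shallower spots of an area lay at a tissue edge, that is, had fewer than 6 neighbours under tissue. Between 464 and 1050 spot barcodes were shared by any pair of areas, since barcodes mark positions on the array and not cells. In such data, fewer cells of a type and less RNA per cell cannot be told apart.

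The genes that define these spots share some genomic neighbourhoods. On GRCm38 (GENCODE M21), S100a8 (ENSMUSG00000056054) lies on chromosome 3 from 90668978 to 90670035 and S100a9 (ENSMUSG00000056071) from 90692632 to 90695721, on opposite strands. Camp (ENSMUSG00000038357, 109847379 to 109849617), Ngp (ENSMUSG00000032484, 110419747 to 110423012) and Ltf (ENSMUSG00000032496, 111019271 to 111042767) lie on chromosome 9. Mmp8 lies on the same chromosome but far from these 3 genes, from 7558456 to 7568485. Retnlg (ENSMUSG00000022651) lies on chromosome 16 from 48872621 to 48874496. The 250 bases before the RefSeq start of each gene were searched on both strands for TTGCNNAA (reverse complement TTNNGCAA), a core of the sites bound by C/EBP factors, of which C/EBP epsilon is known for its role in granule genes. It was found in 6 of the 13 genes matched, against 9.56% of 32851 promoter windows of the same length: S100a9, Retnlg, Ngp, Ltf, Lcn2 and Mmp8. S100a8, Camp, Cd177, Ifitm6, Stfa2l1, Slfn4 and Pglyrp1 held no match. The genes searched were the score genes and neutrophil or myeloid genes that rose in these spots. The share is thus a description and was not tested. The part of the window that lies outside the gene model is shown for 4 of the genes with a match. That of Camp, which held no match, is shown for comparison. All are written 5′ to 3′ on the strand of the gene with the match in capitals (RefSeq, GRCm38.p6). Ngp held 2 matches, and the second, 11 bases before the RefSeq start, lies in the part not shown. For Lcn2 the whole window lies within the gene model. A match is a stretch of letters and no measured site.
S100a9, chr3:90695722-90695971, minus strand: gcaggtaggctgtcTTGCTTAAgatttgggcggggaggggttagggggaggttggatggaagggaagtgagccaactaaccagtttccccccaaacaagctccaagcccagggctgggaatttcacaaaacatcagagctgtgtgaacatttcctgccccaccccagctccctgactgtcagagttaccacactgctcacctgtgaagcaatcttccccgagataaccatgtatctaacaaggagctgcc
Ngp, chr9:110419558-110419746, plus strand: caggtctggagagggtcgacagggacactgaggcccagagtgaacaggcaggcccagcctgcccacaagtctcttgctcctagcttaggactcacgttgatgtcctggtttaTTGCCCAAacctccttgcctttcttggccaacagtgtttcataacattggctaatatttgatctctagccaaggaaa
Ltf, chr9:111019042-111019270, plus strand: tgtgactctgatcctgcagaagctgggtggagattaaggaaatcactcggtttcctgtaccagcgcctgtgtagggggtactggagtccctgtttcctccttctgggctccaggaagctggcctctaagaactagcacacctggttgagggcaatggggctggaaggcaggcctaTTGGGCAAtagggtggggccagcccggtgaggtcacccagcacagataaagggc
Mmp8, chr9:7558179-7558428, plus strand: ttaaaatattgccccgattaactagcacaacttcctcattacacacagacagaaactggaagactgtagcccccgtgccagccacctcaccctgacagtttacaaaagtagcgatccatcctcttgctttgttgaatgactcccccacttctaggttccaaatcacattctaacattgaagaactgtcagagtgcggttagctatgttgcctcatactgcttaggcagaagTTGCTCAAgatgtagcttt
Camp, chr9:109849618-109849706, minus strand: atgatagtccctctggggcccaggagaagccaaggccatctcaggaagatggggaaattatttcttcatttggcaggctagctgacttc

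The rule fixed that the 6 genes were high in the neutrophil-rich spots, so their levels there are a description. Together they took 23.4 of every 10000 UMIs in the neutrophil-rich spots of WT, 26.4 in Early, 46.7 in Advanced 1 and 28.3 in Advanced 2, against 3.87, 1.46, 6.54 and 2.92 in the other spots. The signal was concentrated in few spots. The neutrophil-rich spots held 37.7% of all UMIs of the 6 genes in spots with at least 1000 UMIs on WT, 65.1% on Early, 46.0% on Advanced 1 and 54.2% on Advanced 2. A median neutrophil-rich spot held 10, 8, 14 and 9 UMIs of the 6 genes on these areas, and the fullest spot 45, 282, 194 and 134. On Early, 1 spot carried 22.8% of the UMIs of the 6 genes found in the neutrophil-rich spots. At the threshold, the lowest spot inside and the highest outside scored 13.2 and 13.1 per 10000 UMIs on WT, 24.20 and 24.17 on Advanced 1, and 13.11 and 13.07 on Advanced 2. On Early the lowest spot inside scored 5.74, with 3 UMIs of 5226, and spots just outside scored up to 9.94, with 1 UMI of 1006.

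In space, the neutrophil-rich spots lay singly or in small groups. At least 1 of the 6 neighbouring positions was also neutrophil-rich for 59.3% of them on WT, 57.1% on Early, 73.7% on Advanced 1 and 65.0% on Advanced 2. Of the other spots, 17.1%, 17.4%, 20.3% and 17.6% lay beside one. Counting lone spots, they formed 18 groups on WT, 27 on Early, 24 on Advanced 1 and 33 on Advanced 2, the largest of 3, 10, 7 and 7 spots. Of these, 11, 21, 15 and 21 were single spots. On WT, 63.0% of the neutrophil-rich spots lay at a tissue edge, against 69.9% of the other spots, and the shares were 67.3% and 62.7% on Early, 19.3% and 34.7% on Advanced 1, and 48.3% and 46.7% on Advanced 2. Their median depth was 3374 UMIs against 3560 in the other spots on WT, 8862 against 5247 on Early, 3756 against 3122.5 on Advanced 1 and 4491 against 2981.5 on Advanced 2.

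**Figure D1:**
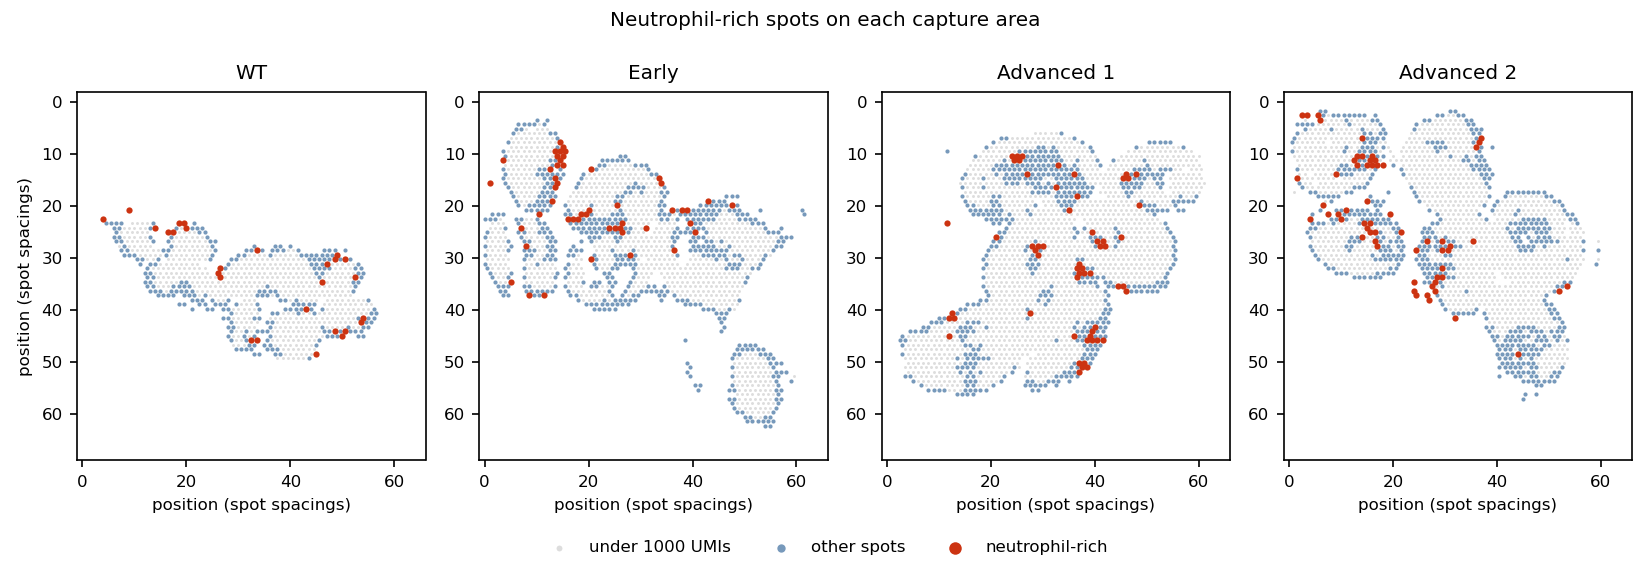
Positions of the spots on the 4 capture areas, in units of the spacing between spots on both axes; red points are neutrophil-rich spots, blue points the other spots with at least 1000 UMIs and grey points shallower spots under tissue. The 27, 49, 57 and 60 neutrophil-rich spots of WT, Early, Advanced 1 and Advanced 2 (Advanced areas 1 and 2) lie scattered singly or in groups of at most 10 spots, and the other spots with at least 1000 UMIs line the tissue margins and form patches.

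Most neutrophil-rich spots held both kinds of RNA. UMIs of calprotectin genes and of at least 1 of Camp, Ngp and Ltf were found together in 16 of 27 spots on WT, 27 of 49 on Early, 48 of 57 on Advanced 1 and 43 of 60 on Advanced 2. Granule UMIs without calprotectin UMIs were found in 0, 0, 1 and 2 spots.

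To ask whether the 6 genes rise in the same spots, each was tested with neutrophil-rich spots chosen by the other 5 genes only. All 6 genes rose, by 2.87 to 3.48 on the log2 scale, on 4 of 4 areas each. Ngp rose most, by 3.48 on that scale (SE, its standard error, 0.18, adjusted p = 2.27e-19, edgeR), from 0.263 to 2.19 per 10000 UMIs on WT, 0.066 to 1.97 on Early, 0.628 to 4.88 on Advanced 1 and 0.290 to 2.72 on Advanced 2. Camp rose by 3.16 (SE 0.20, adjusted p = 2.11e-14, edgeR), and Ltf by 3.06 (SE 0.23, adjusted p = 1.11e-11, edgeR). S100a8 was at 5.99, 10.9, 14.4 and 9.50 per 10000 UMIs in the spots chosen without it on WT, Early, Advanced 1 and Advanced 2, and at 1.62, 0.717, 2.48 and 1.20 in the other spots. The 2 calprotectin genes rose alike, S100a8 by 2.92 (SE 0.14, adjusted p = 1.43e-27, edgeR) and S100a9 by 2.87 (SE 0.13, adjusted p = 1.56e-36, edgeR). Retnlg, the scarcest with 4 UMIs in the chosen spots of WT, rose by 3.02 (SE 0.35, adjusted p = 6.58e-09, edgeR). In these 6 fits, 0.306%, 0.631%, 0.42%, 0.28%, 0.495% and 0.289% of all genes tested were called higher, in the order S100a8, S100a9, Retnlg, Camp, Ngp, Ltf. The ratio between chosen and other spots was largest on Early for all 6 genes, from 13.6 to 29.9, but this difference between areas was not tested.

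**Figure D2:**
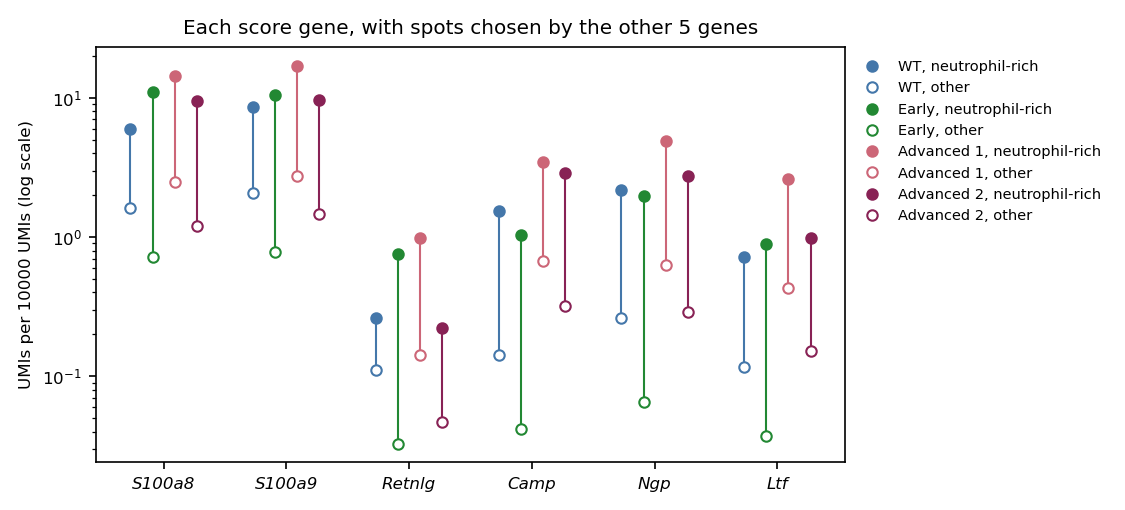
UMIs per 10000 UMIs of each score gene (log scale) on each area, in spots chosen as neutrophil-rich by the other 5 genes (filled points) and in the other spots (open points), joined by a line. In all 24 pairs the filled point lies above the open one, by 2.35 times for Retnlg on WT up to 29.9 times for Ngp on Early.

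Beyond the score genes, further granule and neutrophil genes, antibody genes and stromal genes were higher in the neutrophil-rich spots. Follicle and hemoglobin genes were lower. Some antibody, stromal, follicle and hemoglobin genes moved the same way in the spots beside neutrophil-rich spots, as given below. Of 10722 genes tested with the area as a block, 61 were called (0.569%), 31 higher (0.289%) and 30 lower (0.28%), at an adjusted p under 0.05 in edgeR's quasi-likelihood test. Scaling by total UMIs gave 27 higher and 41 lower. The count was 110 without the WT area, 16 without Advanced 1 and 34 without Advanced 2, and 1006 genes had an unadjusted p under 0.05.

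Among 11 other secondary and tertiary granule genes tested, 4 rose and 0 fell, with a median log2 difference of 0.63 against 0.01 over all genes. The summed level of the list was not raised throughout. It was 29.6, 79.6, 43.1 and 50.7 per 10000 UMIs in the neutrophil-rich spots of WT, Early, Advanced 1 and Advanced 2, against 35.1, 81.9, 60.6 and 48.5 in the other spots. Lcn2, which encodes the iron-scavenging lipocalin of secondary granules, was at 1.11, 1.39, 1.73 and 1.72 per 10000 UMIs in the neutrophil-rich spots of WT, Early, Advanced 1 and Advanced 2, against 0.313, 0.238, 0.383 and 0.144 in the other spots. Lcn2 rose by a log2 difference of 2.59 (SE 0.20, adjusted p = 4.15e-10, edgeR). Cd177, a surface protein held in the same granules, had 0, 11, 10 and 4 UMIs in the neutrophil-rich spots and 1, 2, 3 and 2 in the far more numerous other spots. It rose by 4.64 (SE 0.71, adjusted p = 0.000264, edgeR), but not on WT, where the neutrophil-rich spots held 0 UMIs. Mmp8, the neutrophil collagenase, had 0, 8, 9 and 6 UMIs against 8, 2, 14 and 1, and rose by 3.08 (SE 0.67, adjusted p = 0.0181, edgeR), a call that was lost without Early or either Advanced area. Pglyrp1, which encodes a peptidoglycan-binding granule protein, rose by 0.78 (SE 0.17, adjusted p = 0.0234, edgeR), a call lost without Early, without Advanced 2 or without the fullest spot of each area. The granule genes that did not pass included Chil3 (1.48, adjusted p = 0.0935, edgeR) and the gelatinase gene Mmp9 (0.63, adjusted p = 0.241, edgeR). Lyz2, the lysozyme gene that macrophages also express, had a log2 difference of -0.25 (adjusted p = 0.415, edgeR) and was at 19.9 to 61.6 per 10000 UMIs in the neutrophil-rich spots.

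Of 16 other neutrophil genes tested, 3 rose and 0 fell (median log2 difference 0.50). The whole list of 22 genes summed to 15.7, 15.7, 13.1 and 12.3 per 10000 UMIs in the neutrophil-rich spots of WT, Early, Advanced 1 and Advanced 2. In the other spots it summed to 16.0, 10.8, 10.6 and 9.44, so the sum was not higher on WT. Wfdc21, a small secreted protein gene of neutrophils, had 4, 25, 28 and 15 UMIs in the neutrophil-rich spots against 16, 40, 28 and 14 in the other spots, in the order WT, Early, Advanced 1 and Advanced 2. It rose by 2.72 (SE 0.31, adjusted p = 2.64e-06, edgeR). Ifitm6, an interferon-induced membrane protein gene of myeloid cells, was at 0.521, 0.704, 1.30 and 0.700 per 10000 UMIs against 0.176, 0.210, 0.277 and 0.230. Ifitm6 rose by 1.89 (SE 0.22, adjusted p = 2.64e-06, edgeR). Stfa2l1, which encodes a stefin protease inhibitor, rose by 3.03 (SE 0.72, adjusted p = 0.0365, edgeR) on 16 UMIs in the neutrophil-rich spots and 17 in the others, a call lost without Advanced 1 or without the fullest spot of each area. In spots at a tissue edge alone, the log2 difference was 2.64 for Lcn2, 2.84 for Wfdc21 and 1.93 for Ifitm6, and in interior spots alone it was 2.32 for Lcn2 and 1.73 for Ifitm6. The calls of Mmp8 (adjusted p = 0.0627, edgeR), Pglyrp1 (0.0643) and Stfa2l1 (0.0822) were lost in edge spots alone, and that of Pglyrp1 in interior spots (0.827). In spots thinned to 1000 UMIs, the calls of Lcn2 (log2 difference 2.04, adjusted p = 0.0540, edgeR), Ifitm6 (1.78, adjusted p = 0.643) and Pglyrp1 (0.32, adjusted p = 0.945) were lost. Cd177, Wfdc21, Mmp8 and Stfa2l1 had too few UMIs to be tested in thinned spots or in interior spots alone.

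Genes of the surface of mature neutrophils gave little signal. Ly6g, the marker by which mouse neutrophils are usually sorted, had 1, 3, 1 and 1 UMIs in the neutrophil-rich spots and 1, 2, 4 and 0 in the other spots, too few for the test. Csf3r, the receptor for the growth factor G-CSF, was higher on 4 of 4 areas without passing (log2 difference 0.78, adjusted p = 0.0575, edgeR). Cxcr2, the receptor through which neutrophils follow CXCL1 and related chemokines, was at 0.326, 0.363, 0.247 and 0.318 per 10000 UMIs against 0.130, 0.324, 0.336 and 0.335, with a log2 difference of 0.11 (adjusted p = 0.938, edgeR). Primary granule genes, which mark immature cells of the marrow, were scarce, with a sum of 0.130 to 0.680 per 10000 UMIs in the neutrophil-rich spots. A UMI of Mpo was found in 0%, 6.12%, 12.3% and 6.67% of these spots on WT, Early, Advanced 1 and Advanced 2. In the other spots the shares were 2.44%, 0.906%, 10.5% and 2.02%. Elane had 0, 0, 1 and 1 UMIs in the neutrophil-rich spots, and of the 2 tested, Prtn3 (0.92, adjusted p = 0.590, edgeR) and Mpo (0.39, adjusted p = 0.857, edgeR) did not pass. The 10 genes of the phagocyte oxidase and its signalling partners gave 0 calls and a median log2 difference of -0.05. Among 7 recruiting signals tested there were 0 calls, with the largest differences for the chemokine genes Cxcl5 (0.95, adjusted p = 0.0859, edgeR) and Cxcl1 (0.80, adjusted p = 0.241, edgeR), and Cxcl3, Csf2, Il6 and Il17a had 0 UMIs in the neutrophil-rich spots. Thus the label rests on granule, calprotectin and 3 further neutrophil genes, and the defining surface marker was at or near 0.

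**Figure D3:**
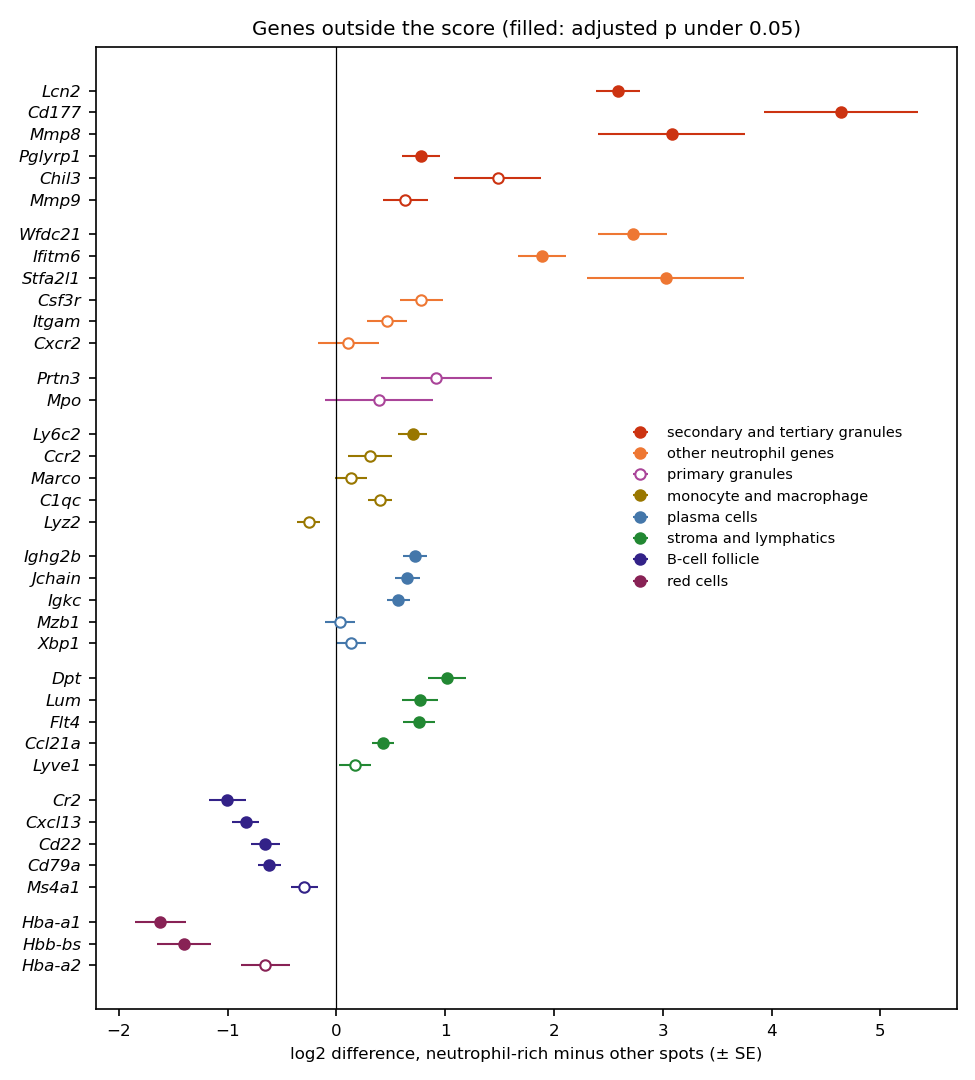
Log2 difference between neutrophil-rich and other spots with its standard error (horizontal bars) for genes of 8 groups outside the score (colours), from the edgeR fit over 4 areas; filled points passed an adjusted p of 0.05 and open points did not. Cd177, Mmp8, Stfa2l1, Wfdc21 and Lcn2 lie between 2.59 and 4.64, whereas Cxcr2 at 0.11 and Lyz2 at -0.25 lie near 0.

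Genes of other cell types moved with the neutrophil genes. Of 11 plasma cell genes, 6 rose and 0 fell, with a median log2 difference of 0.47. Jchain, which joins polymeric antibodies, was at 20.7, 10.3, 20.7 and 15.4 per 10000 UMIs in the neutrophil-rich spots of WT, Early, Advanced 1 and Advanced 2, against 15.6, 7.60, 9.12 and 11.9 in the other spots, and rose by 0.65 (SE 0.12, adjusted p = 0.00218, edgeR). Ighg2b rose by 0.72, Ighg3 by 0.63, Ighm by 0.58, Igkc by 0.57 and Ighg1 by 0.47, the last with a difference of -0.0039 in tissue-edge spots alone. The 6 genes that rose encode the antibody chains themselves and Jchain. Mzb1 (0.03, adjusted p = 0.971, edgeR) and Xbp1 (0.13, adjusted p = 0.820, edgeR), which serve antibody secretion, did not pass. All 6 calls were lost without Advanced 1, that of Ighg3 also without Advanced 2, and that of Ighg1 also without WT or Advanced 2. IgG genes are close paralogs, and reads may have been split between them.

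Among 8 lymphatic endothelial genes, Ccl21a, a chemokine that guides cells into the node and has near-identical copies with which it may share reads, rose by 0.43, and Flt4, the receptor of lymphatic growth factors, by 0.76. The summed level of the list was 12.4 to 23.1 per 10000 UMIs in the neutrophil-rich spots and 8.97 to 20.7 in the others. Of 8 capsule and fibroblast genes, Dpt (1.01) and Lum (0.77), both of the collagen matrix, rose, with sums of 10.6 to 15.7 against 7.75 to 12.8. The calls of Flt4 and Lum were lost without Early or Advanced 1, and that of Ccl21a without either Advanced area. In spots thinned to 1000 UMIs, Flt4 was at -0.05 and Lum at -0.11. Of 10 monocyte genes, 1 rose, namely Ly6c2, the surface marker of inflammatory monocytes (0.70, adjusted p = 0.00456, edgeR), a call lost without Advanced 1, and the sum was 9.62 to 13.7 against 10.2 to 13.1. None of 13 sinus macrophage genes passed. Marco, the scavenger receptor of sinus macrophages, was at 18.6, 37.7, 15.1 and 29.9 per 10000 UMIs in the neutrophil-rich spots, against 33.0, 21.8, 18.0 and 20.9 in the others, in the same order of areas. Thus it was lower on WT and Advanced 1 and higher on Early and Advanced 2. The part of these cell types in the neutrophil gene differences was not tested.

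Follicle genes were lower in the neutrophil-rich spots. Of 11 B-cell follicle genes, 4 fell and 0 rose (median log2 difference -0.51). Cxcl13, the chemokine that draws B cells into follicles, was at 2.61, 16.4, 4.14 and 6.14 per 10000 UMIs, against 4.66, 25.2, 12.1 and 9.14, and was lower on every area, falling by 0.83 on the log2 scale (SE 0.13, adjusted p = 0.000264, edgeR). Cr2, a complement receptor of follicular dendritic cells and B cells, fell by 1.00, Cd22 by 0.65 and Cd79a by 0.62, of which the last kept its call without any 1 area. The calls of Cxcl13 and Cr2 were lost without Advanced 1, and that of Cd22 without either Advanced area. None of 12 T-cell genes was called (median 0.20). Of 4 hemoglobin genes, which are close copies and uncertain one by one, Hba-a1 fell by 1.62 (SE 0.23, adjusted p = 0.000159, edgeR) and Hbb-bs by 1.40 (SE 0.25, adjusted p = 0.00189, edgeR). These directions turned when the top 20% of spots were taken, to 0.25 and 0.40, and when spots were scored by Camp, Ngp and Ltf alone, to 0.59 and 0.38. The chemokine gene Ccl20 fell by 1.18, a call lost without Early or either Advanced area. The 10 cell cycle genes all had positive differences (median 0.50), and 0 passed. Nor was any of the tested platelet (2), eosinophil and basophil (3), mast cell (5), dendritic cell (8), blood endothelial (10), perinodal fat (9), keratinocyte (1), interferon (7) or cell stress (7) genes called, and no skeletal muscle gene had enough UMIs.

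Outside these lists, the genes with the largest increases by the rule for named genes were Pcdh1, a protocadherin (1.38), and Tent5c, a poly(A) polymerase known from plasma cells (0.96). Cxcl12, the chemokine that retains cells bearing CXCR4, rose by 0.57 (SE 0.10, adjusted p = 0.00161, edgeR), from 14.2 to 19.5 per 10000 UMIs on WT, 7.61 to 11.8 on Early, 14.9 to 22.7 on Advanced 1 and 12.7 to 16.5 on Advanced 2. Cavin1, Inmt, Nr4a1, mt-Nd3, Pcolce, Glul, Ahnak and Il6st followed, between 0.52 and 0.69, of which Nr4a1 (-0.25) and Ahnak (-0.13) turned in thinned spots. Without Advanced 1, the calls of all of these 11 genes were lost. Hamp, which encodes hepcidin, the hormone that closes the iron exporter ferroportin, fell by 3.28 (SE 0.50, adjusted p = 0.000264, edgeR). It had 0, 3, 2 and 0 UMIs in the neutrophil-rich spots and 1, 411, 50 and 17 in the others, so the change rested mainly on the Early area. Lyz1, the second lysozyme gene, fell by 1.16 (SE 0.14, adjusted p = 8.02e-06, edgeR) and was at 1.04, 7.17, 2.13 and 4.10 per 10000 UMIs against 3.39, 11.2, 8.19 and 8.49. Slfn4, a schlafen gene of myeloid cells, rose by 2.24 (adjusted p = 0.00607, edgeR), and was chosen after its values were seen, since its 85 UMIs in the sums tested fall under the minimum of 100.

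Across single spots, neutrophil genes went together only in part. The Spearman correlation between the shares of S100a8 and S100a9 was 0.41, 0.39, 0.45 and 0.44 over 273 spots on WT, 601 on Early, 579 on Advanced 1 and 604 on Advanced 2, in that order, and that between the calprotectin genes and Camp, Ngp and Ltf was 0.26, 0.31, 0.34 and 0.41. These points share a library and differ in depth, and the score itself had a correlation of 0.14 to 0.37 with depth. Outside the lists, the genes whose shares followed the score most closely were mt-Co3 (mean over the areas 0.23), Rplp1 (0.23), Il6st (0.21), Gsn, Glul, mt-Nd3, Cxcl12, B2m, Ccl8 and Ctsb (0.20). All of these values are low.

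The spots next to neutrophil-rich spots were then compared with the remaining spots, since neither kind had been taken as neutrophil-rich. They carried more calprotectin RNA and more sinus macrophage RNA, and less follicle RNA. Of 10806 genes tested, 105 were called (0.972%), 65 higher (0.602%) and 40 lower (0.37%). Of the 105 genes, 23 were shared with the 61 called in the neutrophil-rich spots, which is 37.7% of those and 21.9% of the 105. Without the Early area 2 genes were called, without Advanced 2 there were 51, and without WT 172.

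Of the score genes, 4 of 6 rose. S100a8 was at 2.83, 1.1002, 3.88 and 1.58 per 10000 UMIs beside neutrophil-rich spots on WT, Early, Advanced 1 and Advanced 2, against 1.13, 0.489, 1.92 and 0.906 elsewhere, and rose by 1.09 (SE 0.12, adjusted p = 1.9e-05, edgeR). S100a9 rose by 0.96, Camp by 1.24 and Ngp by 1.31, whereas Ltf (0.99, adjusted p = 0.280, edgeR) and Retnlg (0.27, adjusted p = 0.897, edgeR) did not pass. The calls of Camp and Ngp were lost without Early or either Advanced area. Ifitm6 rose by 1.11, a call lost without Early (adjusted p = 0.461, edgeR). RNA can spread sideways on the array during permeabilization, and its part in these values was not tested.

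Of 13 sinus macrophage genes, 8 rose (median log2 difference 0.55). Marco was at 49.0, 37.7, 19.5 and 34.8 per 10000 UMIs beside neutrophil-rich spots against 28.5, 18.0, 17.6 and 17.6 elsewhere, higher on 4 of 4 areas, and rose by 0.77 (SE 0.11, adjusted p = 0.000574, edgeR). Cd5l, a secreted macrophage protein, rose by 1.19, Hmox1, the enzyme that breaks down heme, by 0.87, the mannose receptor gene Mrc1 by 0.62, the complement gene C1qa by 0.55 and Timd4, a receptor for dying cells, by 0.49. Myeloid genes outside the lists rose as well, among them the lectin receptor genes Clec4a2 (1.17), Cd209f (1.06) and Clec4a1 (1.02), Ms4a6d (0.96), the receptor gene Ptafr (0.88) and the monocyte chemokine Ccl2 (0.87). Saa3, an acute-phase protein gene, rose by 0.86. Of 11 follicle genes 9 fell, among them Cr2 by 0.71 and Cxcl13 by 0.61. Among 11 plasma cell genes, Jchain, Igkc and Ighg2b rose (median log2 difference 0.40). Lum and Col1a1 of 8 capsule and fibroblast genes and Lyve1 of 8 lymphatic endothelial genes rose too. The hemoglobin genes Hba-a1 and Hbb-bs fell. All of these calls in macrophage, follicle, myeloid, antibody, stromal and hemoglobin genes were lost without the Early area. Those of Clec4a2, Cd209f and Ms4a6d were also lost without WT.

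**Figure D4:**
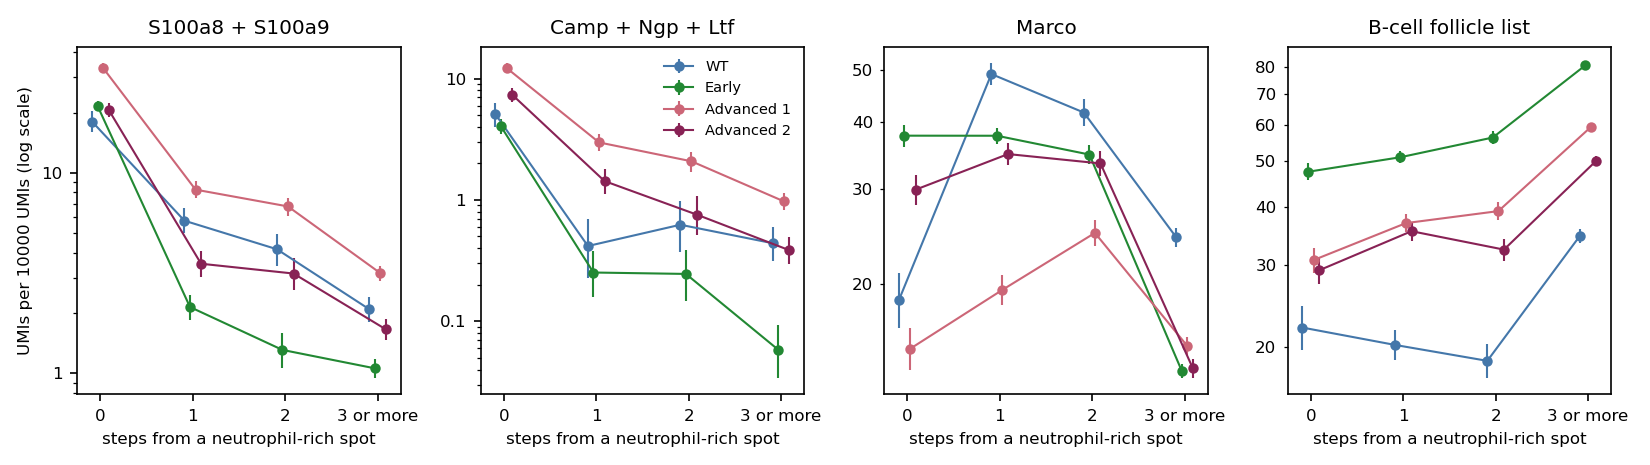
UMIs per 10000 UMIs (log scale, with 95% Poisson intervals that cover counting error only) in spots with at least 1000 UMIs at 0, 1, 2 and at least 3 steps from the nearest neutrophil-rich spot, for S100a8 and S100a9, for Camp, Ngp and Ltf, for Marco and for the 11 follicle genes, with a line for each area (Advanced 1 and 2 are the 2 Advanced areas). Calprotectin falls on WT from 18.1 to 2.09 and on Early from 21.6 to 1.06, while Marco is lowest at at least 3 steps on Early and Advanced 2.

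With distance, the calprotectin genes fell at each step on all 4 areas. They took 18.1, 5.78, 4.16 and 2.09 of every 10000 UMIs at 0, 1, 2 and at least 3 steps on WT, 21.6, 2.14, 1.31 and 1.06 on Early, 33.4, 8.26, 6.81 and 3.16 on Advanced 1, and 20.7, 3.52, 3.15 and 1.66 on Advanced 2. The first of these values reflects the rule. Marco followed another course and was at 18.6, 49.0, 41.6 and 24.4 on WT, at 37.7, 37.7, 34.7 and 13.8 on Early, at 15.1, 19.5, 24.8 and 15.3 on Advanced 1, and at 29.9, 34.8, 33.4 and 13.9 on Advanced 2. Its course thus differed between the areas. Hemoglobin RNA was highest 2 steps away on every area, at 10.5, 40.3, 24.1 and 49.6 per 10000 UMIs on WT, Early, Advanced 1 and Advanced 2.

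Neutrophil-rich spots were next compared between stages. Advanced had 2 areas and Early and WT had 1 each, so that each test had 1 residual degree of freedom and assumed that the single area varied like the Advanced pair. Both comparisons share the Advanced areas. Early and WT were not tested against each other, and their values stand side by side. Of 7641 genes tested between Advanced and Early, 41 were called (0.537%), 31 higher in Advanced (0.406%) and 10 lower (0.131%), and 390 had an unadjusted p under 0.05. DESeq2 called 5, and with the top 20% of spots 57 genes were called, 26 higher and 31 lower. The neutrophil-rich spots of Early were deeper than those of the other areas, and their lowest score was under 6 per 10000 UMIs where those of the other areas were above 13.

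The score genes themselves are given as a description, since the rule set their level on each area, and nothing is read from Camp and Ngp being among the 31. Camp was at 1.56, 1.17, 3.99 and 3.34 per 10000 UMIs in the neutrophil-rich spots (WT, Early, Advanced 1 and Advanced 2) whereas Ngp was at 2.74, 1.96, 5.35 and 2.93. S100a8 was at 7.04, 10.5, 14.8 and 9.76, and S100a9 at 11.02, 11.2, 18.6 and 10.9. Since the rule set these levels, no order of stages is read from them. The ratio of Camp, Ngp and Ltf UMIs to S100a8 and S100a9 UMIs was 0.282 on WT (95% interval 0.216 to 0.363), 0.187 on Early (0.159 to 0.218), 0.367 on Advanced 1 (0.326 to 0.412) and 0.357 on Advanced 2 (0.306 to 0.415). The 2 Advanced areas averaged 0.362 ± 0.0069 (SD, n = 2), which was 1.94 times the Early value. The same genes chose these spots, at a different cutoff on each area, so this ratio is a description and was not tested. In the other spots with at least 1000 UMIs the ratio was 0.143, 0.0961, 0.324 and 0.285. Over all spots under tissue, the neutrophil-rich ones included, it was 0.205, 0.153, 0.342 and 0.330, and the average of the Advanced areas was 2.20 times Early. The intervals cover counting error only. None of 13 other neutrophil genes was called between Advanced and Early, Lcn2 was at 1.11, 1.39, 1.73 and 1.72, and the 5 recruiting signals tested had 0 calls, with all 5 lower in Advanced (median log2 difference -1.08).

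The genes that rose from Early to Advanced in the neutrophil-rich spots included fat, antibody and red cell genes. Of 9 perinodal fat genes, 6 rose, with a median log2 difference of 2.67 against 0.01 over all genes. Fabp4, the fatty acid carrier of fat cells, was at 2.62 per 10000 UMIs in Early and at 7.11 and 11.6 in the Advanced areas, with 3.58 in WT, and rose by 1.87 (SE 0.28, adjusted p = 2.2e-08, edgeR). Cfd, which encodes adipsin, was at 0.405 in Early, 8.26 and 5.25 in Advanced and 1.63 in WT, and rose by 4.09 (SE 0.38, adjusted p = 9.34e-24, edgeR). Car3 had 3 UMIs in Early and 195 in the Advanced areas, a ratio of 47.8 (16.1 to 234, counting interval). Cidec, Retn and Thrsp, the last with 1 UMI in Early, rose as well, as did the fat synthesis genes Fasn (1.70) and Scd1 (1.31) outside the list. In the other spots of the same areas, Car3 was at 0.763 in Early and at 1.29 and 1.86 in Advanced.

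Of 11 plasma cell genes, 5 rose. Ighg2b was at 59.1 per 10000 UMIs in Early, 183 and 224 in Advanced and 343 in WT, and rose by 1.82 over Early (SE 0.16, adjusted p = 2.43e-25, edgeR). Ighg1 rose by 1.75, Ighg2c by 1.33, Igkc by 0.96 and Jchain by 0.85. The hemoglobin genes Hbb-bt (2.40), Hba-a2 (2.37) and Hbb-bs (2.30) rose, but fell by 0.83, 0.86 and 1.60 when the top 20% of spots were taken. Thrsp passed in 2 of 9 alternatives, and its call was lost without WT in the fit, among others. Jchain passed in 6 of 10. Vwf, the clotting factor of blood vessel walls, had 4 UMIs in Early and 31 and 22 in Advanced and rose by 3.26, Ccl21a rose by 1.47, and Inmt by 1.89. Slpi, an inhibitor of the neutrophil protease elastase, was at 1.75 in Early and at 6.56 and 1.37 in Advanced. Its increase of 1.23 (adjusted p = 0.00092, edgeR) rested on Advanced 1 and was -0.32 without it. Il18rap, a subunit of the interleukin-18 receptor, had 0 UMIs in Early and 25 in Advanced, which is at least 6.13-fold higher against a floor of 3 counts over the Early spots.

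The genes that were lower in Advanced included acute-phase, chemokine, lysozyme and follicle genes. None of these genes was called when the contrast with other spots was compared between the stages, as given below. Saa3 was at 8.23 per 10000 UMIs in Early, 1.36 and 1.27 in Advanced and 0.326 in WT, and fell by 2.60 from Early to Advanced (SE 0.29, adjusted p = 2.11e-16, edgeR). The chemokine genes Ccl7 and Ccl12 fell by 1.37 and 1.11, the lectin receptor gene Clec4n by 1.35, and the lysozyme genes Lyz1 by 1.16 and Lyz2 by 0.89. Fth1, the iron storage gene, was at 59.5 in Early and at 24.0 and 33.6 in Advanced, and fell by 1.01 (SE 0.19, adjusted p = 3.7e-05, edgeR). Cr2 fell by 1.73 and Cxcl13 by 1.63. None of 13 sinus macrophage genes was called between Advanced and Early.

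Between Advanced and WT, 15 genes were called (0.196%), 10 higher (0.131%) and 5 lower (0.0654%), and 437 had an unadjusted p under 0.05. Scaling by total UMIs gave 14 higher and 4 lower, with a median over all genes of 0.13 in place of 0.04, and DESeq2 called 1. With the top 20% of spots, 16 were higher and 31 lower. Hbb-bs (2.89), Hba-a2 (2.13), Cfd (1.97), Car3 (1.88), Scd1 (1.66), Ighg3 (1.47), Fabp4 (1.30) and Ighg2c (1.21) were higher in Advanced. So were Glycam1 (1.55), a ligand on the venules through which lymphocytes enter, and Clu (1.03), which encodes clusterin. Slpi fell by 3.83 (SE 0.22, adjusted p = 1.22e-62, edgeR) and was at 53.8 per 10000 UMIs in the neutrophil-rich spots of WT and at 61.0 in its other spots. Ighg1 fell by 2.64, from 128 in WT to 20.0 and 23.2. Ighg2b fell by 0.83 and Ccl8 by 0.89. Arhgap35 fell by 2.87, on 17 UMIs in WT. None of the 13 other neutrophil genes was called, and the score genes were not compared, since the rule set their level.

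**Figure D5:**
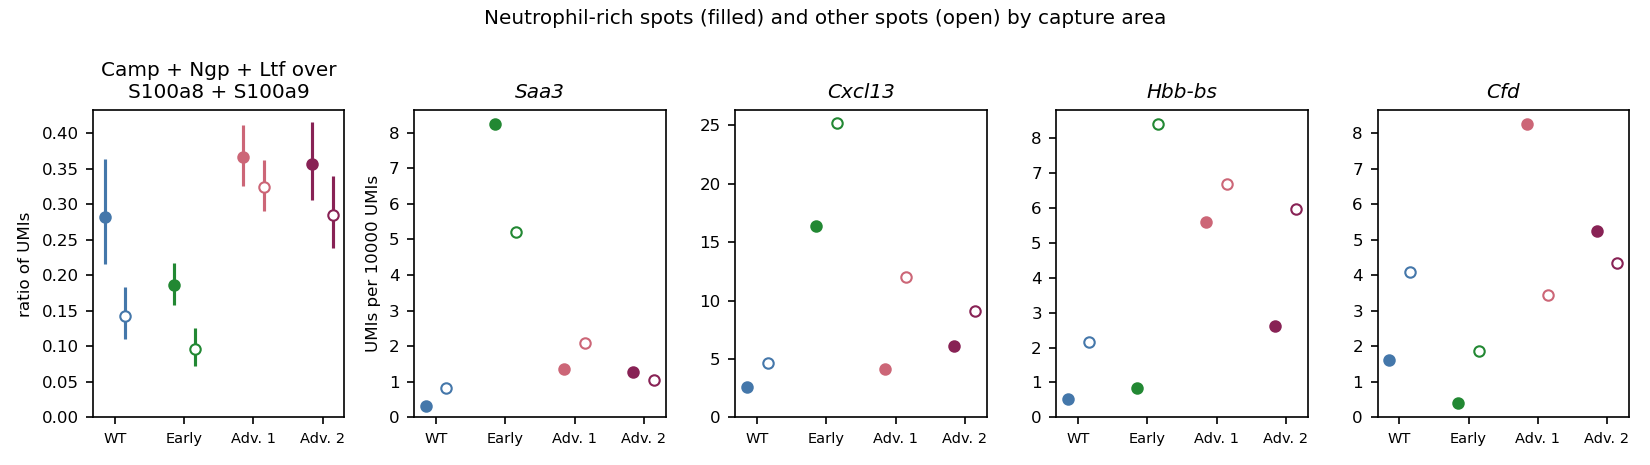
Ratio of Camp, Ngp and Ltf UMIs to S100a8 and S100a9 UMIs with its 95% interval (left), and UMIs per 10000 UMIs of Saa3, Cxcl13, Hbb-bs and Cfd, in the neutrophil-rich spots (filled) and the other spots (open) of each area (Adv. 1 and 2 are the Advanced areas). Both filled Advanced points lie above Early for Cfd (8.26 and 5.25 against 0.405), and both lie below Early for Saa3 (1.36 and 1.27 against 8.23).

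The contrast between neutrophil-rich and other spots was itself compared between Advanced and Early, which takes out what differed in both kinds of spot. Of 11481 genes tested, 8 were called (0.0697%), and all 8 were higher in the Advanced contrast. Cfd was at 0.405 in neutrophil-rich and 1.87 in other spots of Early, and at 8.26 against 3.45 and 5.25 against 4.35 in the Advanced areas. Its contrast was lower in Early and higher in both Advanced areas, a difference of 3.08 (SE 0.34, adjusted p = 6.41e-16, edgeR). Car3 differed by 4.62 and Ifi27l2a, an interferon-induced gene, by 1.35. The hemoglobin genes Hbb-bs (2.72), Hba-a2 (2.42), Hbb-bt (2.38) and Hba-a1 (2.04) differed too, but by -1.72, -1.26, -1.34 and -1.90 with the top 20% of spots. DESeq2 called 0 genes, where edgeR had 431 at an unadjusted p under 0.05 and DESeq2 16. None of the 12 other granule genes and 17 other neutrophil genes tested was among the 8. Nor was any of the 12 plasma cell, 11 follicle and 10 acute inflammatory genes tested, and of 9 fat genes only Cfd and Car3 were. Jchain differed by 0.44, Saa3 by -0.77 and Cxcl13 by -0.33 without passing. The changes of such genes between stages were thus not shown to be particular to the neutrophil-rich spots.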

How the data were processed

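The deposited files hold raw UMI counts without normalization, which the authors obtained with Space Ranger 1.1.0, and only spots under tissue were used. Features that share a symbol (77 of 32287) were kept apart by their identifiers. Their notes also name Seurat 4.0.3 in R 4.1.1. Spots were scored and chosen as described above, and UMIs were summed over spots per area. Sums were tested with edgeR 4.0.16 in R 4.3.3 (TMM, filterByExpr, quasi-likelihood, Benjamini-Hochberg over all genes tested, threshold 0.05), with the area as a block between kinds of spot and without the 6 score genes in the first comparison. DESeq2 1.42.0 was an alternative. Levels are UMIs per 10000, and intervals on them are exact Poisson intervals. Those on the granule to calprotectin ratio are exact Clopper-Pearson intervals of the granule share, turned into a ratio. P-values rest on the spread between areas, each a single section, which edgeR pools over genes. Between stages and in the difference between contrasts, 1 residual degree of freedom remained, so that this spread came almost wholly from all genes together. A small p there does not measure how closely the 2 Advanced areas agreed in that gene. Genes of 26 lists could be named. Others were named by size of the difference among genes with at least 100 UMIs, which between kinds of spot had to be called and to move alike on every area, and between stages to move alike on both Advanced areas. Between Advanced and WT and in the difference between contrasts, every gene called was named, which added Clu, Ccl8, Arhgap35 and Endog. Fth1, Il18rap and Slfn4 were named outside these rules. Members, lists and tests were chosen with earlier results of these data known. Counting was by 3′ tags, and strand handling is not given in the sources used here.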

Additional observations from a re-analysis of the deposited data

Results flagged for a closer look

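In 8 genes, the contrast between neutrophil-rich and other spots differed between Advanced and Early by the edgeR test of the difference itself. The differences were 3.08 for Cfd (adjusted p = 6.41e-16), 4.62 for Car3 (adjusted p = 1.77e-13), 2.72 for Hbb-bs (adjusted p = 4.13e-16), 2.42 for Hba-a2 (adjusted p = 5.48e-11), 2.38 for Hbb-bt (adjusted p = 0.0341), 2.04 for Hba-a1 (adjusted p = 9.31e-05) and 1.35 for Ifi27l2a (adjusted p = 0.000763). The eighth was Endog, a mitochondrial nuclease gene, with a fitted difference of 8.85 (adjusted p = 0.0341) that depends on the prior count, since Endog had 0 UMIs in the neutrophil-rich spots of Early and 23 in those of the Advanced areas, at least 5.64-fold higher against a floor of 3 counts over the Early spots. Endog passed in 2 of 8 alternatives and Hbb-bt in 3 of 8.

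In spots with fewer than 1000 UMIs, which entered none of the tests between kinds of spot or stages at the minimum of 1000 UMIs, the 6 score genes took 6.19 of every 10000 UMIs on Advanced 1 (95% Poisson interval 5.38 to 7.08), above the 3.797 of WT (2.78 to 5.06). They took 1.39 on Early and 3.59 on Advanced 2. These spots held a median of 106 to 171 UMIs.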

How the results depend on the processing

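The count of 61 genes called between neutrophil-rich and other spots became 29 with DESeq2, 102 without a filter on low counts, 120 with a minimum of 500 UMIs, 448 with the top 20% of spots, 7 in spots thinned to 1000 UMIs, 9 in interior spots and 3 without the area block, and ran from 16 to 110 when 1 area was left out. The 105 genes beside neutrophil-rich spots became 35 with DESeq2 and 182 without the filter, and ran from 2 to 172. Of the 41 genes between Advanced and Early, DESeq2 called 5, thinning left 2, and the top 20% gave 57 (26 higher, 31 lower). The 15 between Advanced and WT became 1 with DESeq2, 47 with the top 20% (16 higher, 31 lower) and 3 after thinning. The 8 of the difference between contrasts became 0 with DESeq2 and 5 with 500 UMIs. All 6 score genes passed in every alternative that gave an adjusted p (10 or 11 each), and Cd177 (16), Wfdc21 (17) and Hamp (14) did so too. Between kinds of spot there were 20 alternatives, and in the rest of these Cd177, Wfdc21 and Hamp had no adjusted p. The ratio of 1.94 was 2.18 over spots with at least 1000 UMIs, 2.20 over all spots, 1.98 with 500 UMIs, 1.85 with the top 5% and 2.00 with the top 20%, and 1.91 to 1.97 with 1 Advanced area.

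With the top 20% of spots, the direction turned for Hba-a1 (0.25) and Hbb-bs (0.40) between kinds of spot, for Hba-a2 (-0.86), Hbb-bs (-1.60) and Hbb-bt (-0.83) between Advanced and Early, and for Hba-a1 (-1.90), Hba-a2 (-1.26), Hbb-bs (-1.72) and Hbb-bt (-1.34) in the difference between contrasts. Scoring by Camp, Ngp and Ltf turned Hba-a1 (0.59) and Hbb-bs (0.38), and tissue-edge spots turned Ighg1 (-0.0039). Thinning turned Ahnak (-0.13), Flt4 (-0.045), Lum (-0.11), Nr4a1 (-0.25) and, between Advanced and WT, Ltbp2 (-0.062). Slpi between Advanced and Early was -0.32 without Advanced 1 and 1.93 without Advanced 2. The causes were not tested. Of 2323 single-gene values under the alternatives, 1782 were counted as unchanged, 510 lost their call, 13 gained one and 18 turned. The unchanged values include some without a test, from comparisons of stages with 1 Advanced area left out. Those kept their direction and were not held against the threshold. Taking out the highest spot of each area, chosen after seeing the data, left 55 genes called, 53 of them among the 61. Leaving out an Advanced area in the comparisons of stages left no residual degrees of freedom and gave values without a test. No paired analysis of stages was possible because the areas of different stages held PLNs of different mice. Comparisons between kinds of spot had the area as a block. Depth limits the rarer genes, since Ly6g had 6 UMIs in all neutrophil-rich spots.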
